A study of Danio rerio with 12 samples.

Results

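Zebrafish embryos that had received a control morpholino were compared at 18 somites and at 10 somites. In this interval somites are added, muscle fibres differentiate, heart precursors gather at the midline and primitive blood cells mature. The comparison used 6 of the 12 arrays of the series, 3 labelled Control MO at 18 somites and 3 labelled Control MO at 10 somites, and all 15502 probe sets that are not array controls. The remaining 6 arrays hold embryos given pbx2-MO;pbx4-MO, a pair of morpholinos against the homeodomain factors Pbx2 and Pbx4, at the same stages, 3 arrays each. They entered the model through the estimate of the spread. They also entered the mean signals that pick a gene's probe set and order probe sets by brightness, and the quantile normalization. Their own changes are quoted only in the last paragraph of this section and in the closing sections. A morpholino is a synthetic antisense molecule that keeps an RNA from being translated or spliced. All embryos were injected at the 1 to 2 cell stage, and the labels describe the control morpholino as a pbx2 mutant. The stage comparison therefore describes embryos that were injected, and uninjected embryos were not analysed here. Strain, embryos per sample and whether replicates came from separate clutches are not given, so p-values reflect differences among these arrays alone, which may be technical. Total RNA came from embryos, with no dissection named, and in such RNA more cells of a type and more RNA per cell cannot be told apart.

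Somites form in pairs from the presomitic mesoderm, the unsegmented tissue ahead of the tailbud, where Fgf and Wnt signals keep cells immature and a clock of Hes family repressors and Notch signals sets the rhythm. Cells that leave this tissue switch on myogenic factors and then the contractile proteins of slow and fast fibres. Outside the somites, the same stages bring the eye vesicles, the first axons, the heart precursors and the first blood cells.

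Values are log2 signals from which each array's median over probe sets was subtracted, so that 0 is the signal of the middle probe set of an array and a difference of 1 is a 2-fold change. The subtraction was needed because the stages were deposited on different scales. The medians were 6.53, 6.52 and 6.53 on the 18 somite arrays and 7.29, 7.30 and 7.29 on the 10 somite arrays. The sources used here do not say which arrays the authors normalized together, and a difference of normalization between the stages cannot be told apart from the stage itself. After the subtraction, 8 control probe sets for artificial tags, which have no target in an embryo, read -3.09 to -1.24 at 18 somites and -3.25 to -1.04 at 10 somites, and a stage mean no higher than the highest of these is called here within the tag range, where background makes fold changes smaller. Arrays of the same stage correlated at 0.9963 to 0.9965 at 18 somites and 0.9954 to 0.9972 at 10 somites over probe sets, and arrays of different stages at 0.9791 to 0.9844. Of 25 measured genes that mark the main embryonic tissues, 24 lay above the tag range at 18 somites and 23 at 10 somites. The heart factor nkx2.5 was within it at both stages, and the muscle factor myod1 at 10 somites.

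**Figure D1:**
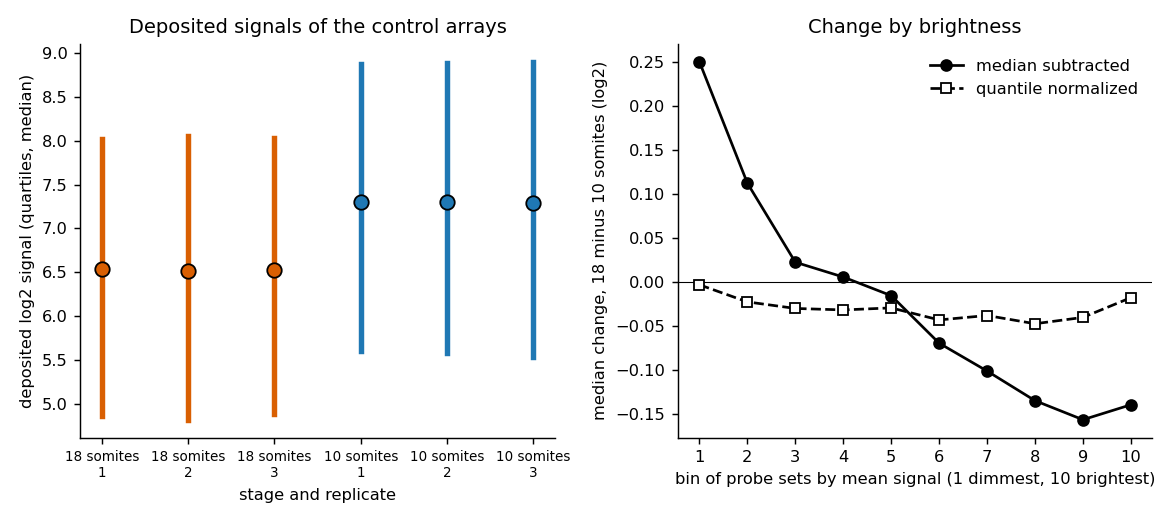
Left, the lower quartile, median and upper quartile of deposited log2 signals over 15502 probe sets on each control array, 18 somite arrays in orange and 10 somite arrays in blue; the medians are 6.53, 6.52 and 6.53 at 18 somites and 7.29, 7.30 and 7.29 at 10 somites. Right, the median change (18 somites minus 10 somites, log2) within 10 bins of probe sets ordered by mean signal, after median subtraction (filled circles) and after quantile normalization (open squares); the filled circles run from 0.25 in the dimmest bin to -0.16 in bin 9.

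The remaining scale difference was small but ran with brightness. The median change was -0.016 over all probe sets, 0.25 in the dimmest of 10 bins by mean signal and -0.16 in bin 9. After quantile normalization of all arrays the medians of the bins lay between -0.047 and -0.003. Centring on 9 probe sets for bacterial and phage control transcripts that are added to the hybridisation moved the median of all probe sets by 0.16. Centring on ribosomal protein and proteasome probe sets moved it by -0.098. Small changes of whole gene lists are therefore given with their range over these scalings. Relative to the array median, the hybridisation controls averaged 2.64, 2.39 and 2.12 on the 10 somite control arrays. On the 18 somite control arrays they averaged 2.27, 2.05 and 2.34. Centring on them therefore adds differences between arrays of a stage to every probe set. How much this bears on the calls with this centring was not tested. With hybridisation control centring, 23 of the 174 genes named in the text kept their direction and lost their call, all of them lower at 18 somites, namely aldh1a2, aldoaa, aplnra, apoeb, ccnb1, cdt1, cebpa, cyp26a1, dmd, fn1b, gadd45ab, gata1a, lmo2, myl6, nip7, pou5f3, six4b, sox10, tbx6, tbxta, tfap2a, timp2b and tp63. With quantile normalization 4 of these lost it, aldoaa, fn1b, gata1a and myl6, and with ribosomal and proteasome centring pbx2 did.

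The model called 7892 of 15502 probe sets, or 50.9%, at an adjusted p under 0.05 (limma, Benjamini-Hochberg), 24.4% higher and 26.5% lower at 18 somites. Most of these changes were small: 6470 of the called probe sets changed by less than 1.5-fold, and the split between directions was 3042 higher and 543 lower with hybridisation control centring and 2469 higher and 5812 lower with ribosomal and proteasome centring. Changes of at least 2-fold were rarer and lopsided. They were called for 343 probe sets, or 2.21%, of which 255 (1.64%) were higher and 88 (0.568%) lower at 18 somites, and 49 of the higher but 4 of the lower passed 4-fold. The excess of rises over falls at this size held under each scaling with centred arrays, from 204 higher and 130 lower with ribosomal and proteasome centring to 404 higher and 45 lower with hybridisation control centring. Signals of all 343 did not overlap between the 3 arrays of either stage, which was true of 58.3% of all probe sets and of 59.3% of named genes. Every gene that the text below names as higher or lower had arrays that did not overlap between the stages, with the exception of pbx2. Counts within lists also include some called genes whose arrays overlap. In 129 of the 255 the 10 somite signal, and in 33 of the 88 the 18 somite signal, lay within the tag range, so these fold changes are limited by background. Not every such gene is marked below. The 10 somite mean was within it for atp2a1, prox1a, neb, cmlc1, myh7, erg, c9, atp1a1a.4 and matn4, among others. The same held for fabp7a, evx1, lft1, hoxc12b, hoxd13a, pgam2, cox6b1, atp1b1b and otomp. The 18 somite mean was within it for alox5b.3, inaa, fbxo32, vent, cdx1a, foxa and fgf3, among others.

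**Figure D2:**
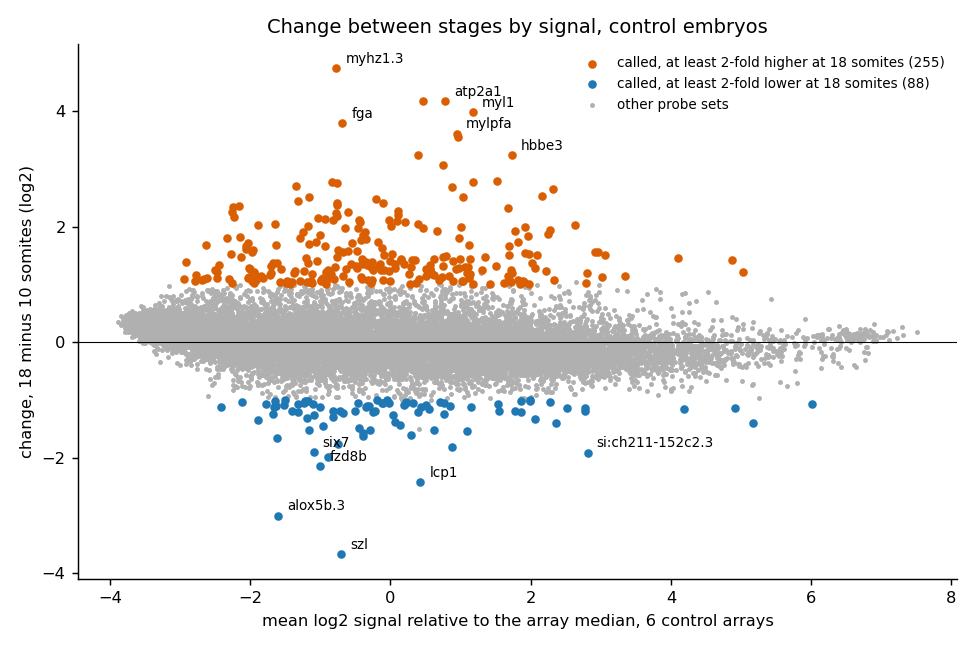
Change between stages (18 somites minus 10 somites, log2, vertical axis) against the mean log2 signal relative to the array median over the 6 control arrays (horizontal axis) for 15502 probe sets. Orange points are the 255 probe sets called at least 2-fold higher at 18 somites, blue points the 88 called at least 2-fold lower, grey points the rest; the 6 highest and the 6 lowest named genes are labelled, from myhz1.3 at 4.74 to szl at -3.67.

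Genes of fast muscle stood at the top of the comparison. The highest change was that of myhz1.3, a fast muscle myosin heavy chain gene, which read 1.59, 1.62 and 1.59 at 18 somites and -3.37, -3.10 and -2.95 at 10 somites, a change of 4.74 ± 0.28 on the log2 scale (SE of the model, n = 3 per stage, adjusted p = 2.82e-08), or 26.7-fold. Changes are given in this form below, 18 somites minus 10 somites. The 18 somite signal was above the array median, while the 10 somite mean was within the tag range. Next came atp2a1, the calcium pump that refills the sarcoplasmic reticulum of fast fibres, at 3.05, 2.86 and 2.702 against -1.25, -1.41 and -1.24, a change of 4.17 ± 0.19. Its 10 somite mean was within the tag range too. The light chain gene myl1 read 3.32, 3.07 and 3.10 at 18 somites and -1.21, -0.97 and -0.27 at 10 somites (3.98 ± 0.24). The regulatory light chain gene mylpfa read 2.97, 2.58 and 2.71 against -0.91, -0.97 and -0.69 (3.61 ± 0.22), and its other probe set changed by 3.56. The muscle creatine kinase genes ckmb and ckma, which buffer the energy supply of contracting fibres, changed by 2.80 ± 0.14 and 2.78 ± 0.16, with 2.95, 2.91 and 2.91 against 0.17, 0.052 and 0.15 for ckmb. For none of these genes did any 18 somite array overlap the 10 somite arrays.

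Of 22 measured fast muscle genes 16 were higher at 18 somites and none lower, 11 of them by at least 2-fold, where 21.8% of all 8793 named genes were called higher, 29.3% lower and 2.49% changed by at least 2-fold, 1.89% higher and 0.603% lower. Their median was 1.17, against -0.042 over all named genes, and ran from 1.07 to 1.33 over the other scalings. Of the 6 that were not called, 4 were within the tag range at both stages. Of the 3 slow muscle genes measured all 3 were higher. The slow myosin heavy chain gene smyhc1 read 3.97, 3.93 and 3.87 at 18 somites and was already bright at 10 somites, with 2.80, 2.67 and 2.86 (1.15 ± 0.068). The transcription factor gene prox1a, which acts in slow fibres and in liver and lens, changed by 1.25 ± 0.063.

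Genes used by all skeletal fibres followed. Of 25 measured, 18, or 72%, were higher and 2, or 8%, lower, against 21.8% and 29.3% of all named genes. The median of the list was 0.78 (0.68 to 0.94 over the other scalings). The Z-disc gene ldb3b read 0.15, 0.19 and -0.061 at 18 somites against -2.54, -2.48 and -2.25 at 10 somites, within the tag range, a change of 2.52 ± 0.14. Neb, the gene of the thin filament ruler nebulin, changed by 1.78 ± 0.10 and klhl41b, which stabilises nebulin, by 1.67 ± 0.13. The cardiac and early skeletal actin gene actc1b read 5.73, 5.61 and 5.55 at 18 somites and 4.37, 4.28 and 4.61 at 10 somites (1.21 ± 0.12), and its other 3 probe sets ran from -0.26 to 1.43. The exceptions were hspb1, a small heat shock protein gene, at 4.40, 4.57 and 4.45 against 5.83, 6.01 and 5.77 (-1.40 ± 0.094), and the dystrophin gene dmd at -0.53 ± 0.077.

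Transcription factors of the muscle lineage moved in both directions. Myog, which drives terminal differentiation, read 2.98, 2.88 and 2.78 at 18 somites and 0.88, 0.78 and 1.46 at 10 somites, a change of 1.84 ± 0.15 (adjusted p = 5.45e-07). The genes mef2d and mef2ca, whose factors act together with the myogenic factors, changed by 0.86 ± 0.082 and 0.78 ± 0.13. Genes expressed earlier, in paraxial mesoderm, were lower: tcf15, a factor of the forming somite epithelium, at -0.65 ± 0.093, tbx6, which readies presomitic cells for segmentation, at -0.51 ± 0.097, and six4b at -0.47 ± 0.077. Among 13 myogenic regulators 7, or 53.8%, were higher and 4, or 30.8%, lower, against 21.8% and 29.3% of all named genes. Their median was 0.33 (0.10 to 0.49 over the other scalings), and 0.016 over those in the brightest 60% of probe sets.

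**Figure D3:**
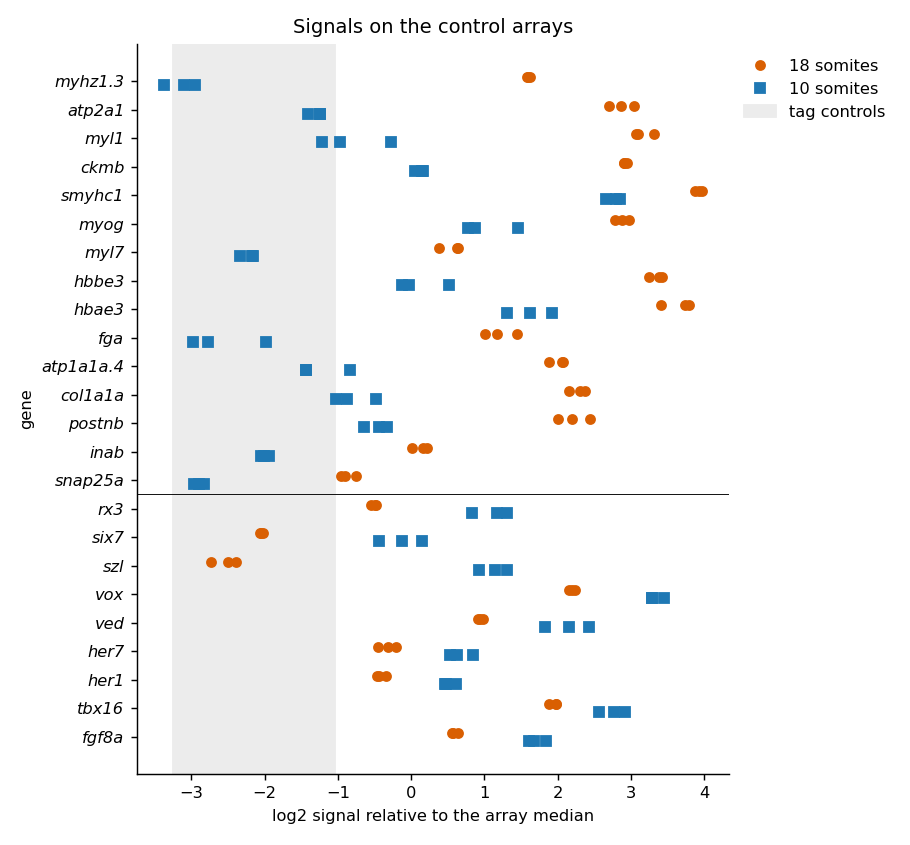
Log2 signal relative to the array median (horizontal axis) of 24 genes on each of the 6 control arrays, orange circles for 18 somites and blue squares for 10 somites. Each gene's 3 orange points and 3 blue points are separate, with the orange points to the right for the upper 15 genes (muscle, heart, blood, plasma, kidney, matrix and neurons) and to the left for the lower 9 (eye field, ventral and tailbud genes); the grey band spans the tag control probe sets on these arrays.

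Contractile genes of the heart were higher at 18 somites. The cardiac light chain gene myl7 read 0.63, 0.64 and 0.38 at 18 somites and -2.16, -2.33 and -2.17 at 10 somites, where it was within the tag range, a change of 2.77 ± 0.12 (adjusted p = 2.43e-09). The light chain gene cmlc1 changed by 2.75 ± 0.11 and myh7, the ventricular heavy chain gene, by 2.01 ± 0.14. Of 8 measured contractile genes of the heart 7 were higher, 5 of them by at least 2-fold, and 1, myl6, a light chain gene also used outside the heart, was lower at -0.18 ± 0.072, a call lost without control 18 somite replicates 1 or 3 or 10 somite replicates 1, 2 or 3 (adjusted p 0.0699 to 0.157). The median of the list was 1.07 (0.96 to 1.23 over the other scalings), and 0.43 over its members in the brightest 60%. Regulators of the heart field were more often lower than higher. Hand2, a bHLH factor of the heart and fin fields, was lower at 1.75, 1.73 and 1.87 against 2.66, 2.61 and 2.68 (-0.87 ± 0.072), and nkx2.7 was lower at -0.73 ± 0.086. Of 13 such regulators 3, or 23.1%, were higher and 6, or 46.2%, lower, against 21.8% and 29.3% of all named genes. The list's median was -0.32 (-0.42 to -0.16 over the other scalings). The gene nkx2.5 stayed within the tag range at both stages (-3.18, -3.15 and -3.08 against -3.13, -3.22 and -3.23).

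Globin genes of the first red blood cells were higher at 18 somites. The embryonic beta globin gene hbbe3 read 3.38, 3.25 and 3.43 at 18 somites and -0.03, -0.13 and 0.52 at 10 somites, a change of 3.23 ± 0.21 (adjusted p = 6.00e-08). The alpha globin gene hbae3 read 3.74, 3.42 and 3.80 against 1.62, 1.31 and 1.92 (2.04 ± 0.25), and hbbe2 changed by 1.69 ± 0.15 from a signal within the tag range. Globin genes lie in clusters of near-identical copies, and a probe set may read several of them. Also higher, and named after their values were seen, were alas2, the entry enzyme of heme synthesis, by 1.26 ± 0.11 and sptb, a spectrin gene, by 1.06 ± 0.066. The lowest change of the list was that of cahz, a carbonic anhydrase gene of red cells, which read 1.22, 1.60 and 1.56 against 1.98, 2.297 and 2.35 (-0.75 ± 0.14). The blood stem cell factor gene lmo2 changed by -0.47 ± 0.083, the Kruppel-like factor gene klf17 at -0.60 ± 0.087 and gata1a, the master factor of the red lineage, at -0.39 ± 0.14 (adjusted p = 0.0376). The call of gata1a was lost without control 18 somite replicates 1 or 2 or 10 somite replicates 1, 2 or 3 (adjusted p 0.0543 to 0.162). Of 19 red cell genes 11, or 57.9%, were higher and 5, or 26.3%, lower, against 21.8% and 29.3% of all named genes. Their median was 0.50 (0.40 to 0.66 over the other scalings), and 0.11 over those in the brightest 60%.

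Among white cell genes the lowest change was that of lcp1. Lcp1, which encodes an actin-bundling protein of leukocytes, fell to -1.18, -0.31 and -0.87 at 18 somites, against 1.58, 1.83 and 1.504 at 10 somites, a change of -2.42 ± 0.18 (adjusted p = 2.32e-07). Among 11 white cell genes 5, or 45.5%, were lower and 2, or 18.2%, higher, against 29.3% and 21.8% of all named genes. Among the others that fell was the myeloid factor gene cebpa at -0.55 ± 0.11. In vessels 5 of 7 measured genes were higher, with the endothelial Vegf receptor gene kdrl at 0.93 ± 0.12 and the Ets factor gene erg at 0.91 ± 0.097, and aplnra was lower at -0.54 ± 0.073.

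Several plasma protein genes were among those with the highest changes. Fibrinogen is assembled from 3 chains, and all 3 genes were higher. The alpha chain gene fga read 1.01, 1.17 and 1.45 at 18 somites and -2.98, -2.78 and -1.98 at 10 somites, within the tag range (3.79 ± 0.27), the beta chain gene fgb changed by 1.97 ± 0.27 and the gamma chain gene fgg by 1.44 ± 0.17. The complement gene c9, whose product forms the pore of the membrane attack complex, read 0.098, -0.072 and -0.028 against -2.73, -2.74 and -2.63 (2.7 ± 0.088), and its other 2 probe sets gave 1.095 and 2.45. Among 37 genes of the yolk layer and plasma 16, or 43.2%, were higher and 3, or 8.1%, lower. Of all named genes, 21.8% were higher and 29.3% lower. The median of the list was 0.10 (0.0043 to 0.26 over the other scalings). The apolipoprotein gene apoeb, bright at both stages, read 6.17, 6.23 and 6.21 against 6.55, 6.62 and 6.52 (-0.36 ± 0.075).

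Of 17 measured genes of the pronephros, the embryonic kidney, 6, or 35.3%, were higher and 7, or 41.2%, lower. Among all named genes 21.8% were higher and 29.3% lower. The median of the list, -0.084, turned to 0.077 with hybridisation control centring. The sodium pump subunit gene atp1a1a.4 read 1.88, 2.07 and 2.06 at 18 somites and -1.43, -1.43 and -0.83 at 10 somites, a change of 3.23 ± 0.15 (adjusted p = 2.52e-09). The kidney cadherin gene cdh17 changed by 1.62 ± 0.11. The lowest was hnf1bb, a homeobox gene of kidney and gut, at -1.13, -1.07 and -0.96 against 0.59, 0.40 and 0.41 (-1.52 ± 0.079), and gata3 and lhx1a were lower at -0.96 ± 0.10 and -0.83 ± 0.07. The means of lhx1a were within the tag range at both stages, and its other 2 probe sets gave -1.04 and -0.17.

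Genes of the extracellular matrix were mostly higher at 18 somites. Col1a1a, which encodes the alpha 1 chain of fibrillar collagen I, read 2.31, 2.37 and 2.16 at 18 somites and -1.02, -0.87 and -0.48 at 10 somites (3.07 ± 0.14, adjusted p = 2.43e-09), with 2.05 from its other probe set. Its partner chain gene col1a2 changed by 1.68 ± 0.093. The gene postnb, a periostin of fin folds and somite boundaries, read 2.45, 2.01 and 2.19 against -0.44, -0.64 and -0.33 (2.69 ± 0.16). Of 29 matrix genes 18, or 62.1%, were higher, 8 by at least 2-fold, and 4, or 13.8%, lower. Among all named genes 21.8% were higher, 1.89% by at least 2-fold, and 29.3% lower. The median of the list was 0.57 (0.47 to 0.73 over the other scalings). The lower members were fn1a, a fibronectin gene, at 2.15, 2.295 and 2.09 against 3.29, 3.52 and 3.27 (-1.18 ± 0.14), with -0.81 and -0.043 from its other 2 probe sets, lamb1a, a laminin of basement membranes, at -0.66 ± 0.083, fn1b at -0.35 ± 0.12 and, named after its value was seen, timp2b at -0.33 ± 0.10, within the tag range at both stages. The calls were lost for fn1b without control 18 somite replicates 1 or 3 or 10 somite replicate 3 (adjusted p 0.0631 to 0.119) and for timp2b without control 18 somite replicate 1 or 10 somite replicate 3 (adjusted p 0.0758 to 0.0804).

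Of 25 measured notochord genes 10, or 40%, were higher and 9, or 36%, lower, against 21.8% and 29.3% of all named genes. Their median of -0.016 turned to 0.065 with quantile normalization and 0.14 with hybridisation control centring. Higher were matn4, a matrilin, at 2.17 ± 0.085, col9a2 at 1.19 ± 0.093, cav1, the caveolin gene, at 1.08 ± 0.16 (its other 3 probe sets from 0.074 to 1.31) and the sheath collagen gene col2a1a at 0.86 ± 0.086. Lower were chrd, the Bmp antagonist of the organizer, at -0.21, -0.25 and -0.19 against 1.00, 1.01 and 0.98 (-1.21 ± 0.073), foxa at -0.98 ± 0.095, noto at -0.75 ± 0.081 and tbxta, the Brachyury gene, at -0.49 ± 0.14 (adjusted p = 0.00842). Tbxta and noto act early in the formation of the notochord. Shha, the Hedgehog ligand of notochord and floor plate, was not called (1.59, 1.74 and 1.88 against 1.78, 1.84 and 1.84, adjusted p = 0.391).

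Of 42 neuronal genes 18, or 42.9%, were higher, 2, or 4.8%, lower and 22 not called. Among all named genes 51.1% were called, 21.8% higher and 29.3% lower. The intermediate filament gene inab read 0.008, 0.21 and 0.16 at 18 somites and -2.06, -2.01 and -1.94 at 10 somites (2.13 ± 0.083, adjusted p = 6.20e-10). The internexin-like gene inaa, outside the list, was lower at -1.76 ± 0.058. The synaptic vesicle fusion gene snap25a read -0.76, -0.91 and -0.95 against -2.96, -2.83 and -2.89 (2.02 ± 0.071). The neuronal RNA-binding protein gene elavl4 changed by 1.40 ± 0.072 and gap43, a gene of growing axons, by 0.89 ± 0.077. The 10 somite means of inab, snap25a and elavl4 lay within the tag range. The proneural factor gene neurog1 read 1.36, 1.41 and 1.39 against 1.68, 1.55 and 1.47 and was not called (adjusted p = 0.0664). It was called lower without control 10 somite replicate 3 (adjusted p 0.0406). Elavl3, which marks neurons as they are born, read 2.396, 2.42 and 2.61 against 2.15, 2.45 and 2.46 and was not called (adjusted p = 0.301). The median of the list was 0.21 (0.11 to 0.37 over the other scalings), and 11 of its genes were within the tag range at both stages.

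Among 22 neural progenitor genes 4, or 18.2%, were higher and 6, or 27.3%, lower, against 21.8% and 29.3% of all named genes. Their median of -0.091 changed sign with hybridisation control centring (0.07). Of the risers 3 are genes of radial glia, the stem cells that line the neural tube. The fatty acid binding protein gene fabp7a read 0.25, 0.031 and 0.70 at 18 somites and -2.00, -1.97 and -1.60 at 10 somites (2.19 ± 0.18), the intermediate filament genes vim and gfap changed by 0.97 ± 0.075 and 0.67 ± 0.096, and sox1a by 0.81 ± 0.098, with 0.19 and 0.36 from its other 2 probe sets. Among the 6 lower were otx2a and otx2b, factors of the anterior neural plate, at -0.70 ± 0.089 and -0.59 ± 0.083, the Hes family gene hes6 at 2.93, 2.93 and 2.86 against 3.55, 3.50 and 3.59 (-0.64 ± 0.11), and pou5f3, a pluripotency factor, at -0.46 ± 0.087. The gene sox3 read 4.64, 4.66 and 4.69 against 4.46, 4.44 and 4.45 and was not called (adjusted p = 0.0673), but was with the replicate block (adjusted p = 0.0416). Its other 2 probe sets gave -0.32 and 0.20.

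Eye genes moved in both directions. Of 22 measured 8, or 36.4%, were higher and 7, or 31.8%, lower, against 21.8% and 29.3% of all named genes. By at least 2-fold 3 were lower and 0 higher. Rx3, the homeobox gene that specifies the eye field, read -0.48, -0.55 and -0.49 at 18 somites and 1.31, 1.17 and 0.83 at 10 somites (-1.61 ± 0.12, adjusted p = 1.66e-07). Its relative rx2 was lower at -1.25 ± 0.11 (-0.67 from its other probe set) and six7 at -1.91 ± 0.15, with the 18 somite mean of six7 within the tag range and its other probe set at -0.42. Rx1, by contrast, was higher by 0.57 ± 0.093. The lens crystallin gene cryaa, at -0.65, -0.73 and -0.41 against -0.40, -0.65 and -0.50, was not called (adjusted p = 0.53). At the midbrain-hindbrain boundary fgf8a, the signal of that organizer and of the tailbud, was lower at 0.56, 0.65 and 0.57 against 1.61, 1.85 and 1.67 (-1.12 ± 0.098), as was her5 (-0.94 ± 0.11), while the engrailed gene en1b was higher (0.64 ± 0.08). In the hindbrain egr2b, the factor of rhombomeres 3 and 5, read 1.22, 1.21 and 1.42 against 2.105, 2.22 and 2.09 (-0.85 ± 0.11).

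Nearly all genes of the presomitic mesoderm and tailbud that were called were lower. Of 35 measured genes 28, or 80%, were lower at 18 somites and 1, or 2.9%, higher, against 29.3% and 21.8% of all named genes. Their median of -0.59 stayed below 0 over the other scalings (-0.68 to -0.42). The clock repressor genes her7 and her1 read -0.32, -0.45 and -0.20 and -0.46, -0.44 and -0.34 at 18 somites, against 0.85, 0.54 and 0.62 and 0.48, 0.46 and 0.61 at 10 somites, changes of -0.99 ± 0.11 and -0.93 ± 0.10. The presomitic T-box and bHLH genes tbx16 and msgn1 were lower at -0.80 ± 0.094 and -0.85 ± 0.11, although a dimmer probe set of msgn1 gave 0.23. The caudal genes cdx4 and cdx1a, which promote posterior fates, were lower at -1.15 ± 0.081 and -1.19 ± 0.11, and cdx4 remained bright, with 3.64, 3.52 and 3.69 against 4.77, 4.79 and 4.74. The single riser was evx1, an even-skipped gene of tail and spinal cord interneurons, at -0.60, -0.60 and -0.52 against -1.46, -1.35 and -1.47 (0.85 ± 0.068).

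Genes of early dorsoventral patterning held the lowest change of the comparison. Szl, which encodes the secreted Bmp regulator Sizzled of the ventral side, fell to -2.504, -2.74 and -2.39 at 18 somites, against 1.32, 1.15 and 0.93 at 10 somites, a change of -3.67 ± 0.12 (adjusted p = 1.74e-10), and its 18 somite mean lay within the tag range. The ventral homeobox repressor genes vox, ved and vent were lower at -1.15 ± 0.087, -1.19 ± 0.14 and -1.52 ± 0.16. For vent the brighter of its probe sets gave -0.54. Of 42 maternal and blastula genes 20, or 47.6%, were lower and 5, or 11.9%, higher, against 29.3% and 21.8% of all named genes. Within the tag range at both stages were 17 of the 42. Within the Bmp and TGF-beta list the ligand gene bmp7a was lower at -0.95 ± 0.10, whereas bmp5 was higher, at 0.58, 0.62 and 0.59 against -0.70, -0.73 and -0.49 (1.24 ± 0.086), as was the Nodal antagonist gene lft1, a gene of left-sided mesoderm, at 0.22, 0.29 and 0.023 against -1.38, -1.34 and -1.47 (1.57 ± 0.15).

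Genes of the Fgf and Wnt pathways were more often lower than higher. Of 22 Fgf pathway genes 14 were lower and 1 higher (median -0.32, -0.41 to -0.15 over the other scalings), among them the ligand fgf8a, the target factor gene etv5a at -0.81 ± 0.074 and the phosphatase gene dusp2 at -0.77 ± 0.073, within the tag range at both stages. The receptor gene fgfr3 was the riser, at 0.44 ± 0.066. Of 37 Wnt pathway genes 19 were lower and 1 higher (median -0.21, -0.31 to -0.048). The receptor gene fzd8b fell to -2.08, -2.15 and -1.98 at 18 somites, within the tag range, against 0.24, 0.033 and -0.055 at 10 somites (-2.15 ± 0.11), the target gene sp5l changed by -1.07 ± 0.095 and lef1, the nuclear effector, at -0.70 ± 0.11. Of 18 retinoic acid genes 7, or 38.9%, were lower and 3, or 16.7%, higher, against 29.3% and 21.8% of all named genes. The synthesis gene rdh10b was at -0.68 ± 0.077, the receptor gene rarga at -0.75 ± 0.10 and the degrading enzyme gene cyp26a1 at -0.46 ± 0.11. The Notch and Hedgehog lists had 10 of 31 and 5 of 18 genes lower, or 32.3% and 27.8% against 29.3% of all named genes, and 4 and 3 higher, and their medians of -0.11 and -0.087 turned positive with hybridisation control centring (0.047 and 0.074).

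**Figure D4:**
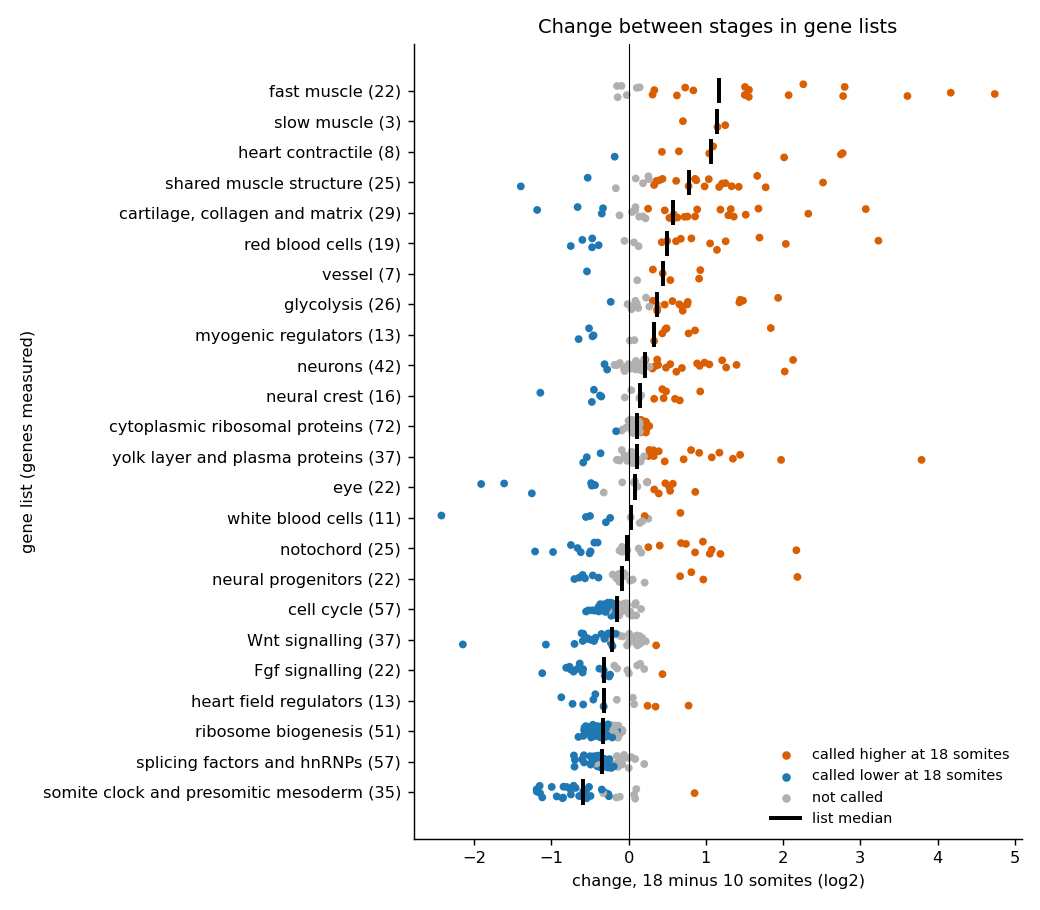
Change between stages (18 somites minus 10 somites, log2, horizontal axis) of every measured gene in 24 gene lists, 1 probe set per gene, with orange points for genes called higher at 18 somites, blue points for genes called lower and grey points for genes not called. The black bar is the list's median; lists run from fast and slow muscle at the top (medians 1.17 and 1.15) to the somite clock and presomitic mesoderm at the bottom (-0.59).

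Hox genes, which assign positional identity along the body axis, did not move as a block. Of 42 measured 19, or 45.2%, were higher and 11, or 26.2%, lower, against 21.8% and 29.3% of all named genes. In paralog groups 1 to 4, the genes of hindbrain and anterior trunk, 7 of 13 were higher and 1 lower, with changes between -0.22 and 0.53. In groups 9 to 11, 4 of 13 were higher and 6 lower. The lowest was hoxd9a at -0.17, -0.19 and -0.28 against 0.98, 0.82 and 0.73 (-1.06 ± 0.076). In groups 12 and 13, whose genes are the last to be switched on in the tailbud, 3 of 4 were higher. Hoxc13a read -0.18, -0.39 and -0.29 at 18 somites and -2.21, -2.18 and -2.22 at 10 somites, within the tag range (1.91 ± 0.12, adjusted p = 3.61e-08), and hoxc12b changed by 0.91 ± 0.071 and, named after its value was seen, hoxd13a by 0.75 ± 0.086. Among genes of groups 5 to 8 hoxb8a was higher (0.96 ± 0.17), with -0.17 and 0.81 from its other 2 probe sets, and hoxc6b lower (-0.95 ± 0.092). The targets of the other morpholinos in the series, pbx2 and pbx4, read 1.46, 1.69 and 1.70 against 1.1, 1.18 and 1.47 (0.37 ± 0.12, adjusted p = 0.0178, with overlapping arrays) and 3.60, 3.73 and 3.69 against 3.75, 3.98 and 3.88 (-0.20 ± 0.091, adjusted p = 0.082), and pbx1a and pbx3b were higher by 0.74 ± 0.076 and 0.83 ± 0.083, the means of pbx3b within the tag range at both stages and that of pbx1a at 10 somites. The call of pbx2 was lost without control 18 somite replicates 2 or 3 or 10 somite replicates 1 or 2 (adjusted p 0.0568 to 0.0757), and pbx4 was called without control 10 somite replicate 1 (adjusted p 0.0483). Over the 20 TALE homeobox genes measured, the family to which Pbx proteins belong, 6, or 30%, were higher and 7, or 35%, lower. The lowest was irx7 at -0.71 ± 0.085.

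**Figure D5:**
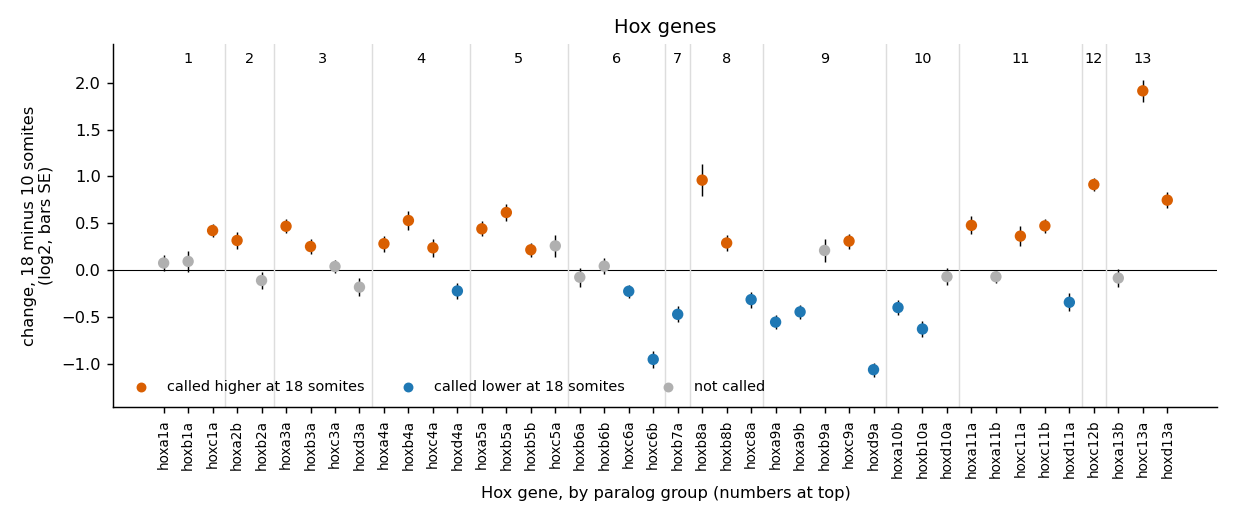
Change between stages (18 somites minus 10 somites, log2, vertical axis, bars are the standard error of the model) of 42 Hox genes ordered by paralog group (horizontal axis), orange where called higher at 18 somites, blue where called lower and grey where not called. Groups 1 to 5 lie between -0.22 and 0.62, and the widest range is in groups 9 to 13, from hoxd9a at -1.06 to hoxc13a at 1.91.

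Among lists of the growth machinery the direction of some depended on the scaling. Ribosome biogenesis genes were lower in 36 of 51 cases with none higher (median -0.33, -0.43 to -0.17 over the other scalings), with utp15, a processome subunit gene, at -0.65 ± 0.087 and nip7 at -0.58 ± 0.086. Splicing factor and hnRNP genes were lower in 42 of 57 with none higher (median -0.35, -0.45 to -0.19). The RNA-binding protein gene hnrnpabb, one of the brightest, read 5.42, 5.44 and 5.50 against 6.20, 6.15 and 6.103 (-0.70 ± 0.065). Cell cycle genes were lower in 25 of 57 with none higher, such as the replication licensing gene cdt1 at -0.55 ± 0.081 and the mitotic cyclin gene ccnb1 at -0.47 ± 0.069, but their median of -0.15 became 0.01 with hybridisation control centring, and the clamp gene pcna was not called (5.83, 5.85 and 5.90 against 5.88, 5.92 and 5.97). The shares called lower in these 3 lists are above the 29.3% of all named genes, a share that takes no account of brightness. In bins 7 to 10 by mean signal the median change of all probe sets was -0.10 to -0.16. With quantile normalization the list medians were -0.20 for ribosome biogenesis, -0.20 for splicing factors and hnRNPs and -0.047 for the cell cycle. How much of these shares goes with brightness was not tested.

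Glycolytic genes were more often higher than lower, with 14 of 26 higher and 1 lower (median 0.37, 0.27 to 0.53 over the other scalings). The aldolase gene aldoab, a muscle form, read 3.42, 3.27 and 3.05 at 18 somites and 1.44, 1.16 and 1.33 at 10 somites (1.94 ± 0.12), the phosphoglycerate mutase gene pgam2 changed by 1.48 ± 0.12 and the enolase gene eno1a by 1.44 ± 0.13. The sister gene aldoaa, bright at both stages, was lower (-0.23 ± 0.071), a call lost without control 18 somite replicate 1 (adjusted p 0.06), and gapdh was not called (0.038 ± 0.071, adjusted p = 0.673). Ribosomal protein genes stayed close to 0, with changes from -0.16 to 0.27. Of these, 72 in number, 19, or 26.4%, were higher, against 21.8% of all named genes, and 1 was lower (median 0.11, 0.0093 to 0.27 over the other scalings). The 0.0093 came from ribosomal and proteasome centring, which uses these genes as its reference and so holds their median near 0 by construction. Respiratory chain and ATP synthase genes had 19 of 69, or 27.5%, higher and 5 lower. Their median of 0.037 turned to -0.061 with ribosomal and proteasome centring. The highest was cox6b1 (0.29, 0.77 and -0.043 against -1.02, -0.82 and -1.28, 1.38 ± 0.22). Of 36 proteasome genes 10, or 27.8%, were lower, against 29.3% of all named genes, and 1 was higher. Their median of -0.13 turned to 0.011 with quantile normalization and 0.031 with hybridisation control centring.

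Neural crest genes moved in both directions. Of 16 measured 7, or 43.75%, were higher and 5, or 31.25%, lower, against 21.8% and 29.3% of all named genes. Among those called higher were dlx2a and crestin, by 0.93 ± 0.069 and 0.60 ± 0.13. Among those called lower were sox9b, sox10 and tfap2a, at -1.14 ± 0.084, -0.48 ± 0.067 and -0.45 ± 0.064, with -0.67 from the other probe set of sox9b. Pigment cell genes were mostly dim, 8 of 12 within the tag range at both stages, and gch2, an enzyme gene of the yellow pigment pathway, gave the highest change there (1.27 ± 0.11), within the tag range at both stages and with 0.15 from its other probe set. In the skin the ionocyte pump gene atp1b1b was higher by 1.27 ± 0.14 and the calcium-binding gene icn by 0.83 ± 0.12, whereas tp63, the factor of basal keratinocytes, was lower at -0.59 ± 0.07. The periderm keratin gene krt4, with 6.91, 6.94 and 6.96 against 6.83, 6.88 and 6.79, was not called (adjusted p = 0.177). Of 26 endocrine and gut genes 5 were higher and 5 lower, 19.2% each, and 16 had no call. Among all named genes 51.1% were called, 21.8% higher and 29.3% lower. Within the tag range at both stages were 9 of the 26. Ins, the insulin gene, read -0.12, -0.35 and -0.15 against -0.084, -0.064 and -0.21 and was not called (adjusted p = 0.407).

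Hindbrain, placode and hatching gland lists were mixed as well. Shares below stand against 21.8% higher and 29.3% lower among all named genes. Of 23 hindbrain segmentation genes 7, or 30.4%, were higher and 9, or 39.1%, lower. Hoxb4a was at 0.53 ± 0.098 and the rhombomere 4 signal gene fgf3 at -0.71 ± 0.078. Of 18 boundary genes 3, or 16.7%, all engrailed genes, were higher and 7, or 38.9%, lower. Of 17 ear, lateral line and placode genes 6 were higher and 6 lower, 35.3% each. The otolith matrix gene otomp read -0.63, -0.73 and -0.40 at 18 somites and -1.45, -1.28 and -1.41 at 10 somites (0.80 ± 0.094), and dlx3b, which defines the otic field, was lower at -0.81 ± 0.087. In the hatching gland 2 of 8 genes were higher and 2 lower, 25% each, with the secretory protein gene agr2 at 1.09 ± 0.12. Of 44 Bmp and TGF-beta genes 6, or 13.6%, were higher and 17, or 38.6%, lower. Of 30 genes of the p53 and stress responses 0 were higher and 8, or 26.7%, lower, against 29.3% of all named genes, with the DNA damage gene gadd45ab at -0.57 ± 0.085.

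The other genes with the lowest changes were of varied kinds. Alox5b.3, a lipoxygenase gene, read -2.93, -3.32 and -3.06 at 18 somites and 0.71, -0.39 and -0.61 at 10 somites (-3.01 ± 0.26), with 1 of the 10 somite arrays well above the other two. The internexin-like gene inaa was lower at -1.76 ± 0.058, fbxo32, a ubiquitin ligase gene, at -1.65 ± 0.15, and gngt2a, a G protein subunit gene of cones in the adult, at -1.62 ± 0.10. The gene mpv17, of the mitochondrial inner membrane, was lower at -1.57 ± 0.081, and its other 3 probe sets ran from -1.31 to -0.30. S100a1, a calcium-binding protein gene, varied within both stages (0.18, 0.31 and -0.58 against 2.05, 2.09 and 1.203) and was lower at -1.81 ± 0.38 (adjusted p = 0.00133). Si:ch211-152c2.3 was lower at -1.91 ± 0.096 and pnhd, a secreted factor gene of early mesoderm, at -1.53 ± 0.17. Among the 15 highest and 15 lowest genes, 3 and 2 probe sets were passed over because the annotation gives them no single symbol.

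In morphants, whose arrays gave no value to the control means but entered the estimate of the spread, the probe sets called at least 2-fold in controls, which were chosen on the control values, mostly changed in the same direction. Among all 15502 probe sets the morphant comparison called 24.9% higher at 18 somites and 28.6% lower, and 1.75% were at least 2-fold higher and 0.523% at least 2-fold lower. Of the 255 that were higher, 254 were called higher in morphants, 209 by at least 2-fold, and their medians were 1.32 in morphants and 1.35 in controls. Of the 88 that were lower, 87 were called lower in morphants, 51 by at least 2-fold, with medians of -1.06 in morphants and -1.17 in controls. Both comparisons share the scale difference between the stages, the estimate of the spread and whatever the authors' processing did per stage, so the morphant values are no independent check of those. The difference between the changes was called for 14 of 15502 probe sets, for 49 with the replicate block, for 28 with hybridisation control centring and for 6 with ribosomal and proteasome centring. It was called for 1 without control 10 somite replicate 2, for 1 without control 18 somite replicate 1, for 7 without control 18 somite replicate 2 and for 2 without control 18 somite replicate 3. Leaving out 1 morphant array, an alternative chosen after the data were seen, gave 1 without 10 somite replicate 2, 1 without 10 somite replicate 3, 1 without 18 somite replicate 1, 4 without 10 somite replicate 1, 9 without 18 somite replicate 2 and 12 without 18 somite replicate 3.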

How the data were processed

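The deposited values are log2 signals of Affymetrix zebrafish arrays, 1 per probe set and array, which the authors summarised with RMA in the affy package, per the submitters' processing notes. Versions, and the set of arrays that was normalized jointly, are not given in the sources used here. From these values each array's median over 15502 probe sets was subtracted, with 115 AFFX control probe sets left out. The model was fitted in limma 3.58.1 (R 4.3.3) over all 12 arrays with 1 mean per group, and p-values were adjusted by the Benjamini-Hochberg method over all 15502 probe sets and called under 0.05. The fit had 8 residual and 6.02 prior degrees of freedom. Precision is limited by having 3 arrays per group, and the median SD over probe sets was 0.0872 at 18 somites and 0.0919 at 10 somites.

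The platform table gives 1 symbol to 10795 probe sets, several to 135 and none to 4572, and 10711 were matched to RefSeq (GRCz12tu, for names only), which changed 1 symbol. In lists a gene stands for its probe set with the highest mean signal. The 43 lists and the members were chosen with earlier results of these data known. Genes named are the 15 highest and 15 lowest called genes (largest change per gene) among those whose arrays did not overlap between stages. Up to 3 highest and 3 lowest called genes per list could be named too, with a panel of 53 genes of which 49 are on the array. Others, outside these rules, are marked as named after their values were seen. Not every gene picked by the list and panel rules is named, and both called and uncalled ones were left out. Whether the array numbers in the labels pair the samples is not given. Deviations of same-numbered control arrays from their stage means correlated at 0.485, 0.263 and 0.180, and those of differently numbered arrays at -0.304 to 0.111. Deviations from a mean of 3 arrays sum to 0, so these values are not independent and do not settle the pairing. The main fit has no replicate block, and a block by these numbers was fitted as an alternative.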

Additional observations from a re-analysis of the deposited data

Results flagged for a closer look

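For 5 named genes the change between stages differed between morphants and controls by the test of the difference itself (limma, adjusted over 15502 probe sets). Lcp1, the actin-bundling protein gene of leukocytes, changed by -0.89 in morphants and -2.42 in controls, a difference of 1.53 ± 0.26 (SE, adjusted p = 0.0396). The cardiac light chain gene cmlc1 changed by 1.09 in morphants and 2.75 in controls, a difference of -1.66 ± 0.16 (adjusted p = 7.39e-04). The ventricular heavy chain gene myh7 changed by 0.78 in morphants and 2.01 in controls, a difference of -1.23 ± 0.20 (adjusted p = 0.0396). The matrilin gene matn4 changed by 1.45 in morphants and 2.17 in controls, a difference of -0.72 ± 0.12 (adjusted p = 0.0396). The retinoic acid synthesis gene aldh1a2 changed by -0.98 in morphants and -0.33 in controls, a difference of -0.64 ± 0.11 (adjusted p = 0.0396). When each of the 12 arrays was left out in turn, cmlc1 was called each time (adjusted p 2.46e-04 to 0.00502). The call of lcp1 was lost without any array but control 18 somite replicate 2, in 11 of 12 cases (adjusted p 0.00525 to 0.125 over all 12). That of myh7 was lost in 11 of 12 cases, all but control 18 somite replicate 3 (0.0108 to 0.125), that of aldh1a2 in 11, all but control 10 somite replicate 1 (0.0357 to 0.155), and that of matn4 in 10, all but control 18 somite replicate 2 and morphant 18 somite replicate 3 (0.0153 to 0.155). Calls were also lost under other settings, for lcp1 without centring, with quantile normalization and among the brightest 60%, for myh7 without centring and with ribosomal and proteasome centring, for matn4 without centring and with each of the 3 other scalings, and for aldh1a2 without centring, with hybridisation control centring, with ribosomal and proteasome centring and among the brightest 60%. The direction of the 5 differences was kept in every one of these fits.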

How the results depend on the processing

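Of the 121 named genes among the brightest 60% of probe sets, all kept direction and call with that filter, although the medians of 23 lists moved. Fits of control arrays only, with array weights, with a variance trend or with the replicate block kept the direction of all 174 named genes, and the block changed no other call than that of sox3 over all 12 arrays (sox3 and pbx4 with the control arrays only). The block called 8790 probe sets, against 7892 without it.

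Without centring 14805 probe sets were called, 255 higher and 14550 lower, and 3911 were at least 2-fold, 69 higher and 3842 lower. Named genes whose sign turned there were crestin (-0.17), elavl3 (-0.64), en1b (-0.13), fgfr3 (-0.33), gapdh (-0.73), gfap (-0.099), hoxb4a (-0.24), hoxd13a (-0.019), krt4 (-0.67), nkx2.5 (-0.71), pbx1a (-0.026), pbx2 (-0.40), rx1 (-0.19) and sox3 (-0.56). With hybridisation control centring 3585 were called, 543 of them lower, 404 at least 2-fold higher and 45 lower, and cryaa (0.079), ins (0.074), pcna (0.10) and shha (0.078), none of them called, turned. With ribosomal and proteasome centring 2469 were called higher, and gapdh (-0.06) and nkx2.5 (-0.043) turned. Quantile normalization gave 2989 higher and 3588 lower, and nkx2.5 (-0.18), pcna (0.036) and shha (0.011) turned. The cause was not tested.

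The brightest 60%, with fewer probe sets tested, gave 4707 calls, 1462 higher and 3245 lower, of which 205 were at least 2-fold, 150 higher and 55 lower. A test against a minimum change of 1 called 122, 106 higher and 16 lower, and 112 named genes lost their call by its construction. Leaving out 1 control array gave 6737 to 7233 calls, 3188 to 3481 higher and 3509 to 3809 lower, and 321 to 386 at least 2-fold, 244 to 284 higher and 77 to 102 lower. The difference between morphants and controls was called for 14 probe sets, for 5 without centring, 28 with hybridisation control centring, 6 with ribosomal and proteasome centring, 49 with the replicate block, 34 with array weights, 3 among the brightest 60% and 1 to 15 when 1 array was left out. List medians moved by more than the spread between arrays for 43 of 43 lists with hybridisation control centring, 34 with ribosomal and proteasome centring, 21 with quantile normalization, 23 with the brightest 60% of probe sets and 4 when a gene's probe sets were averaged. With the brightest 60% the median of the heart contractile list was 0.43 (main value 1.07), of red blood cells 0.11 (0.50) and of neural crest -0.048 (0.15), over fewer genes. Signals within the tag range limit the size of falls and rises alike.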

Other observations

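Genes outside the lists, named after their values were seen, also had changes of at least 2-fold. Among muscle genes, the calcium channel subunit gene cacng1a changed by 2.402 ± 0.14, the muscle cadherin gene cdh15 by 2.37 ± 0.13, tmem38a, a cation channel gene of the sarcoplasmic reticulum, by 1.92 ± 0.12 and trim63a, a ubiquitin ligase gene of the sarcomere, by 2.04 ± 0.097. Among neuronal genes, the complexin gene cplx2a changed by 1.80 ± 0.17, the membrane glycoprotein gene gpm6aa by 1.90 ± 0.13 and the synaptophysin gene sypa by 1.56 ± 0.084. The aquaporin genes aqp8a.1 and aqp1a.1, which encode water channels, changed by 1.66 ± 0.085 and 1.59 ± 0.14, the cytoglobin gene cygb1 by 2.25 ± 0.12 and cnmd, the gene of the cartilage protein chondromodulin, by 2.12 ± 0.16.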
